A study of Mus musculus with 18 samples.

Results

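The genes described here are those of the interferon response and of MHC class I antigen presentation in the arcuate nucleus of female mice, with the MHC class II and other genes that share their name stems. They were picked by symbol, under a rule set with earlier results of these data known. The rule took symbols that began with Ifit, Ifi and a digit, Oas, Irf and a digit, Isg, Gbp and a digit or H2-. It also took a short set of single genes such as Stat2, Psmb8, Psmb9, Psmb10, Tap1, Tap2, B2m, Usp18, Rsad2, Mx1 and Mx2. Of the 23235 symbols in the tables, 111 matched. Of these, 78 had a mean of at least 0.5 FPKM over all 18 libraries and are the members; 33 were below it, and 10 of those 33 were listed at 0 in every library. FPKM corrects fragment numbers for the length of a transcript and the size of a library, so levels can be set side by side between genes. Just above the minimum stood Ifitm6, Ifi204 and Oas2, at 0.603, 0.532 and 0.525, and just below it H2-Bl, H2-Q9 and Oas1g, at 0.441, 0.428 and 0.384. The 78 members fell into 7 roles: 24 antiviral effectors, 9 interferon-induced GTPases, 10 transcription factors, 18 MHC class I chains, 6 antigen processing genes, 6 genes of MHC class II and its peptide loading, and 5 genes that only the name brought in. On chromosome 17, which carries the mouse MHC, lay 29 members, among them all class I chains except B2m and all class II genes.

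Total RNA of the microdissected arcuate nucleus, a hypothalamic region that governs reproduction and energy balance, was sequenced from ovariectomized C57/BL females of 3 genotypes. WT mice have intact estrogen receptor α (ERα, the product of Esr1); ERKO mice lack ERα; and KIKO, as the name is commonly used, stands for a knock-in ERα unable to bind estrogen response elements, placed over a null allele, although the labels describe neither mutant allele. All mice had been ovariectomized. Each genotype received oil or E2 (estradiol benzoate, a 250 ng dose on day 5 after ovariectomy followed by 1500 ng on day 6) and was sampled 24 h after the second dose and a 1 h fast, which gave 6 groups of 3 libraries (n = 3 in each group throughout). Since the labels do not say whether a library holds tissue of 1 animal, the p-values below measure the spread between libraries, which may be partly technical. The title of the series asks which effects of E2 need binding to estrogen response elements, and the comparisons below set the members against that design.

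As a check of the genotypes, Esr1 gave 5.38, 6.92 and 11.9 FPKM in WT oil, 3.45, 5.24 and 5.88 FPKM in WT E2, 2.91, 4.08 and 3.94 FPKM in KIKO oil, 3.05, 3.89 and 2.85 FPKM in KIKO E2, 1.62, 2.39 and 2.27 FPKM in ERKO oil and 1.91, 2.34 and 0.212 FPKM in ERKO E2. All ERKO libraries were below all WT libraries, and the log2 difference averaged over treatments was −1.42 ± 0.23 (adjusted p = 0.00372); FPKM does not separate intact from altered transcripts. One library stood apart before any comparison: ERKO E2 3 correlated with the others at a median of 0.935, where the remaining libraries had medians of 0.969 to 0.99, and results that turn on it are given with and without it. The width of the deposited confidence bounds implied a median of 90.3 fragments per member and library, from 6 for Ifitm6 to 2567 for B2m as medians over libraries, so the members of lowest level rest on few fragments.

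Interferons are cytokines, and those of type I are released when a cell senses foreign nucleic acid. Type I interferons act through the kinases Jak1 and Tyk2 on a complex that holds Stat2 and Irf9 and binds the interferon-stimulated response element (ISRE) of genes such as Isg15 and Ifit1, whereas interferon γ acts on the GAS element. MHC class I molecules, a heavy chain with B2m, show peptides cut by the proteasome and carried by Tap1 and Tap2 on the cell surface, and in the brain they are found on microglia, endothelium and some neurons. MHC class II molecules show peptides from engulfed material and are made by professional antigen-presenting cells.

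The upstream sequences of 3 members that carry the ISRE core and of 2 members that changed in the tests below but do not are printed here, because the first 3 show the element that the complex of Stat2 and Irf9 binds. RefSeq promoter windows of GRCm38.p6, from 250 bases before to 50 bases after a gene's start, were at hand for 56 of the 78 members. The ISRE core was searched as GAAA, any 2 bases and GAAA again, on both strands, with overlapping matches counted separately. It was present for 18 of the 56 members (32.1%), against 3.99% of all 27025 genes and 3.44% of all 32851 windows. By role, the core was found for 9 of 17 antiviral effectors, 4 of 5 GTPases, 3 of 12 class I chains and 2 of 8 transcription factors, and for 0 of 5 antigen processing genes and 0 of 5 class II genes. The GAS letters TTCNNNGAA were present for 15 of the 56 members (26.8%), against 9.55% of all genes. Only the 250 bases before the start are shown, 5′ to 3′ on the gene's own strand, with matches to the ISRE core in capitals.
Isg15 (chr4:156200819-156201068, minus strand): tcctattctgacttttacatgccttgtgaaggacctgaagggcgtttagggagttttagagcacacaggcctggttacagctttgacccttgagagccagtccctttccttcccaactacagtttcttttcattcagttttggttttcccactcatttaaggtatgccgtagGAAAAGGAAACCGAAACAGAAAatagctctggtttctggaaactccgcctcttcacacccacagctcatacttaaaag
Ifit1 (chr19:34640639-34640888, plus strand): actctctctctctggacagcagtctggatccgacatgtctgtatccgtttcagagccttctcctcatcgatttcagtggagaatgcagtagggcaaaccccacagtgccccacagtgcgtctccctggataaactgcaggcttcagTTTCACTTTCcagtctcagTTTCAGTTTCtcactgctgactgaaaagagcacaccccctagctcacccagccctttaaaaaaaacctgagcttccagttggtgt
B2m (chr2:122147437-122147686, plus strand): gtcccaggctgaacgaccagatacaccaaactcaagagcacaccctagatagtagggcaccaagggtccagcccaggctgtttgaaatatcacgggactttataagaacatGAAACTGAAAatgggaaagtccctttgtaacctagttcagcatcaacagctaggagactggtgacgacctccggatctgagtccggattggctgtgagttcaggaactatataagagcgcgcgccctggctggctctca
Ifitm1 (chr7:140967826-140968075, plus strand): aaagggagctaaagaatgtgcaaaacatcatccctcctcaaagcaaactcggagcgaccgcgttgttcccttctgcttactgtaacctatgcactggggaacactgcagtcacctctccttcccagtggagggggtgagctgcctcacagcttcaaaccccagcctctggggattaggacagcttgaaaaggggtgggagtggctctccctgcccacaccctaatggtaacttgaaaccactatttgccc
H2-D1 (chr17:35262844-35263093, plus strand): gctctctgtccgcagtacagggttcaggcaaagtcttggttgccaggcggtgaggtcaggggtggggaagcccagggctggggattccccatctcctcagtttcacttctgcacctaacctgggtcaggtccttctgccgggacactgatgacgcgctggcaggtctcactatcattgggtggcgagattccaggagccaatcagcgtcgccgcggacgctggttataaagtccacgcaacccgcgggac
The window of Isg15, an effector that is attached to other proteins like ubiquitin, held 3 overlapping matches whose first bases lay 78, 72 and 66 bases before the start. Ifit1, whose product binds foreign RNA, had 2 matches at 104 and 85 bases, both as the reverse complement. B2m, the light chain shared by all class I molecules, had 1 match at 139 bases. Ifitm1 and H2-D1 had no exact match in this window, which says nothing about the rest of either gene. The exact search also passes over variants of the element. The H2-D1 window, for instance, holds TTTCACTTC, which is 1 base short of a match.

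The antiviral effectors spanned a wide range of levels, from 0.525 FPKM for Oas2 to 93.4 FPKM for Ifi27l1 as means over 18 libraries. Ifi27l1, a mitochondrial protein, lay between 78.8 FPKM in ERKO oil and 103 FPKM in WT oil as group means. Ifitm3 and Ifitm2, membrane proteins that block the entry of enveloped viruses, had group means of 33.6 to 52.5 FPKM and of 17.9 to 26.1 FPKM. Ifit3, the partner of Ifit1, was at 63.6, 24.3 and 14.5 FPKM in WT oil and at 18.8, 14.2 and 17.3 FPKM in WT E2. The first WT oil library stood far above its replicates, which the group mean of 34.2 ± 26.0 FPKM (SD, n = 3) reflects. Isg15 gave the same picture, at 22.2, 8.84 and 4.56 FPKM in WT oil and 6.93, 5.85 and 4.92 FPKM in WT E2, and so did Usp18, the protease that removes Isg15 from its targets, at 9.52, 2.32 and 4.79 FPKM in WT oil. Among the GTPases, which attack the membranes around intracellular microbes, the highest were Gbp3 (4.74 FPKM), Gbp6 (4.72 FPKM), Gbp2 (4.02 FPKM) and Gbp7 (2.53 FPKM) as means over 18 libraries.

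Among the highest transcription factors were Irf9, Irf3 and Irf2, at 17.2, 16.02 and 11.1 FPKM over 18 libraries. Irf2, which represses Irf1 targets, was the steadiest of them, with group means between 10.4 and 11.7 FPKM. B2m led all members, with group means from 206 to 262 FPKM. It was followed among class I chains by the classical heavy chains H2-D1 (56.3 FPKM) and H2-K1 (43.0 FPKM), which present peptides to CD8 T cells, and by H2-T23 (15.5 FPKM), which encodes the nonclassical molecule Qa-1. The class I heavy chains are close copies of each other, as are the Oas1, Gbp and Ifi200 genes, so fragments may have been divided among them and the level of a single copy is uncertain. The proteasome subunit Psmb10 (25.8 FPKM) and the peptide transporter subunit Tap2 (15.6 FPKM) were the highest processing genes, followed by the subunit Psmb8 (9.84 FPKM) and the lysosomal reductase Ifi30 (6.92 FPKM). Class II genes were lower, from 1.26 FPKM for H2-DMb2 to 8.38 FPKM for H2-DMa, the subunits of the molecule that loads class II with peptide, with the chains H2-Aa, H2-Ab1 and H2-Eb1 at 4.90, 4.55 and 3.37 FPKM.

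The 5 genes caught by name do other work. H2-Ke2, a prefoldin subunit, and H2-Ke6, a hydroxysteroid dehydrogenase, lie within the MHC and had 74.7 and 50.8 FPKM over 18 libraries. Irf2bp1 and Irf2bp2, corepressors that bind Irf2, had 34.7 and 17.8 FPKM, and Isg20l2, a nucleolar exonuclease, 7.43 FPKM. They stay in every count of the 78 below.

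The within-group SD on the log2(FPKM + 1) scale had a median of 0.33 over members and of 0.20 over the 14774 genes tested. It was 0.44 for class II genes, 0.37 for class I chains and 0.36 for effectors, against 0.20 for transcription factors, and ranged from 0.07 (Irf2bp2) to 0.80 (H2-Aa). The members thus varied more between replicates than genes at large. The median over the 78 members of log2(FPKM + 1) minus the gene's mean was 0.27, 0.16 and 0.03 in WT oil 1 to 3, −0.16, −0.28 and 0.08 in WT E2, 0.18, 0.02 and −0.13 in KIKO oil, −0.05, 0.35 and 0.12 in KIKO E2, 0.07, −0.11 and −0.14 in ERKO oil and −0.01, −0.33 and −0.14 in ERKO E2. WT oil and WT E2 overlapped in this summary, since WT E2 3 lay above WT oil 3, and the pooled SD within groups was 0.158. WT oil 1 held the highest value of all libraries for 17 members (21.8%, against 8.18% of all genes tested), 9 of them effectors. KIKO E2 2 held the highest for 23 members (29.5%, against 4.05%), among them 8 of the 9 GTPases and 8 class I chains. ERKO E2 2 held the lowest for 21 members (26.9%, against 4.97%).

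**Figure D1:**
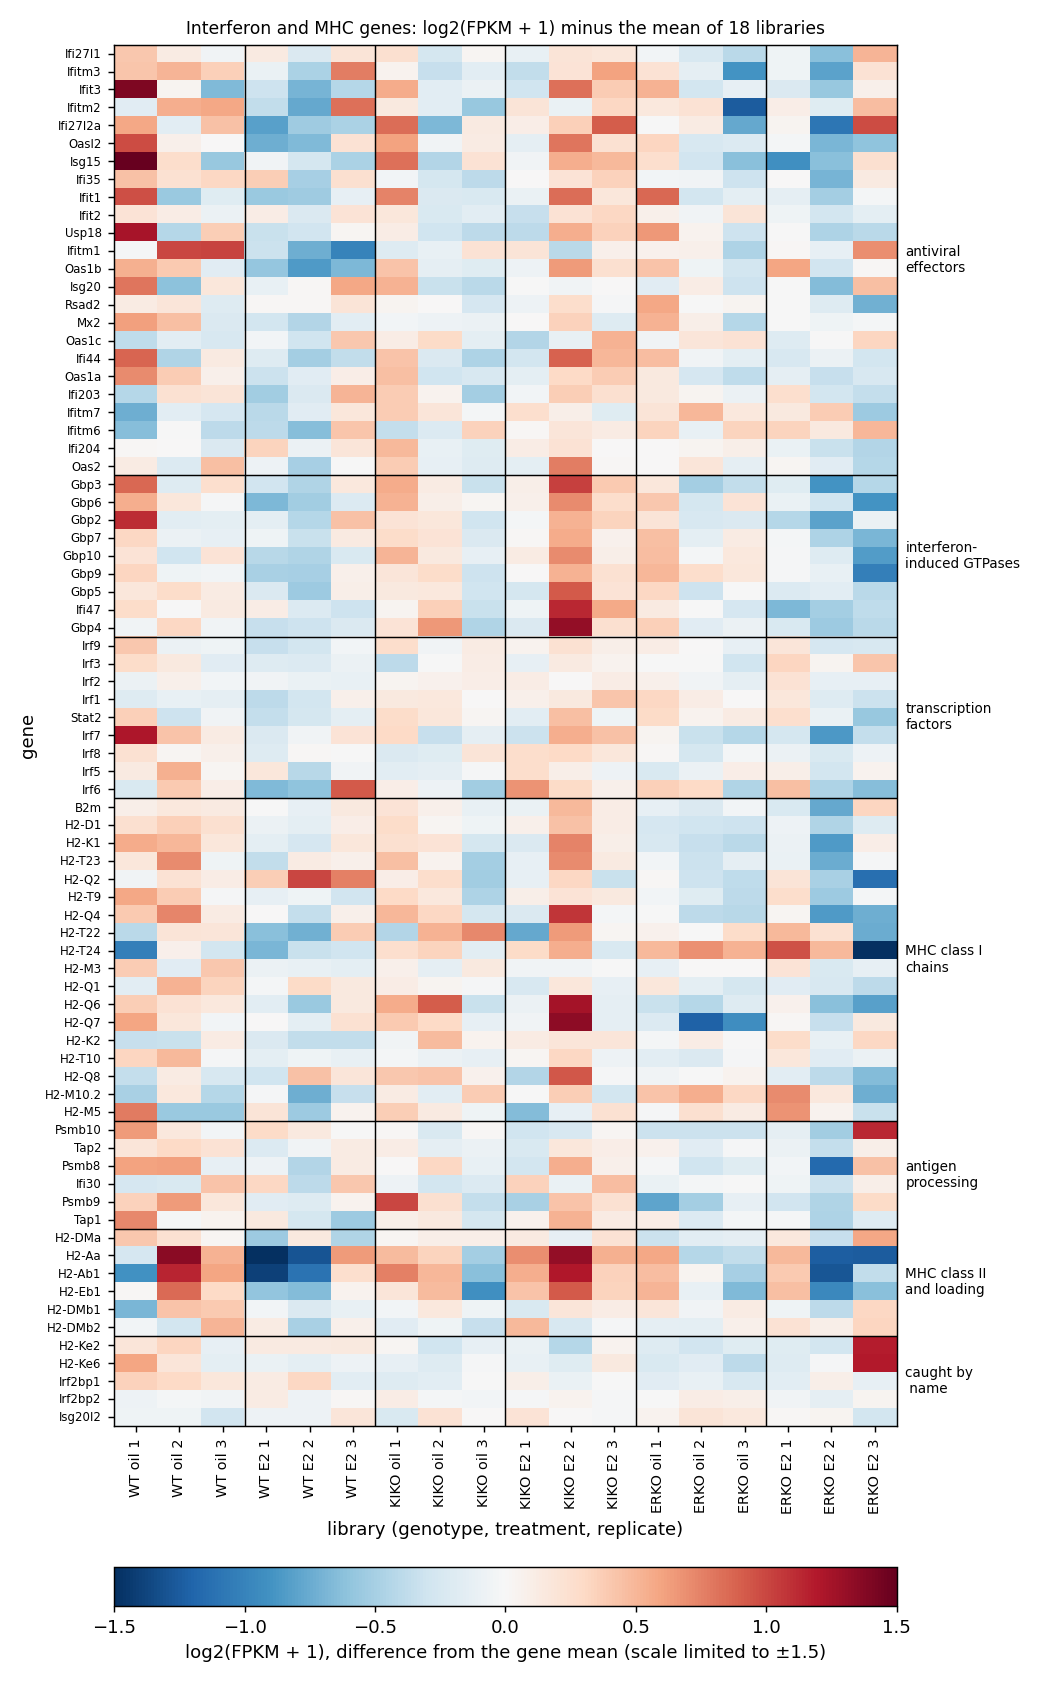
Heat map of 77 of the 78 members (rows, grouped by role) in the 18 libraries (columns, by group), coloured by log2(FPKM + 1) minus the gene's mean over libraries, with the scale limited to ±1.5. The columns of WT oil 1 and KIKO E2 2 are red for many effectors or GTPases, and that of ERKO E2 2 is blue for many members.

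In WT mice, E2 left most members at lower levels than oil, and 1 member changed past the threshold. Differences are on the log2(FPKM + 1) scale with their SE, from limma, and a gene passed at an adjusted p under 0.05 (Benjamini-Hochberg, over 14774 genes); the added 1 shrinks the differences of genes with little expression. The log2 difference was below 0 for 65 of 78 members (83.3%), against 47.6% of all genes, with a median of −0.32 over members and 0.01 over all genes. The direction was shared by all 9 GTPases (median −0.37), all 10 transcription factors (−0.25) and all 6 class II genes (−0.64), by 18 of 24 effectors (−0.39), 15 of 18 class I chains (−0.26) and 5 of 6 processing genes (−0.37). The genes caught by name had a median of 0.01. Of the 78 members 1, Ifitm1, passed the threshold, where 0.785% of all genes did. An unadjusted p under 0.05 was reached by 14 members (17.9%, against 10.3% of all genes), a number that was 6 without WT oil 1, 7 without WT E2 1 and 6 without WT E2 2. Groups did not overlap for 14 members that were lower after E2 and 1 that was higher, against 6.45% and 9.37% of all genes. The median over members ran from −0.38 without WT E2 3 to −0.23 without WT oil 1. In bulk tissue, fewer cells of a type and less RNA per cell cannot be told apart.

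Ifitm1, which blocks virus entry like Ifitm2 and Ifitm3, measured 2.71, 6.52 and 6.58 FPKM in WT oil and 1.99, 1.26 and 0.874 FPKM in WT E2. The groups did not overlap, although WT oil 1 was close to WT E2 1. Ifitm1 fell with E2, by 1.35 ± 0.29 (adjusted p = 0.0408), from 5.27 ± 2.22 to 1.38 ± 0.569 FPKM. These values rest on few fragments, as the confidence bounds implied a median of 22.8 and a minimum of 5.1 over libraries. The other groups had 2.28, 2.47 and 3.35 FPKM (KIKO oil), 3.30, 1.83 and 2.96 FPKM (KIKO E2), 2.93, 2.94 and 1.71 FPKM (ERKO oil) and 2.80, 2.46 and 5.10 FPKM (ERKO E2). In KIKO and ERKO the oil and E2 libraries overlapped. The test of the difference between the E2 responses did not pass, at 1.66 ± 0.41 (adjusted p = 0.122) for ERKO minus WT and 1.34 ± 0.41 (adjusted p = 0.548) for KIKO minus WT. The WT call held without WT oil 1 (−1.69, adjusted p = 0.00743), and was lost without WT oil 2, WT oil 3, WT E2 1, WT E2 2 or WT E2 3, where the difference ran from −1.53 to −1.18 and the adjusted p from 0.0526 to 0.184. Without ERKO E2 3 in the fit it held (adjusted p = 0.0101), with 2.69% of all genes past the threshold.

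The next smallest p among members without overlap belonged to Oas1b and Gbp6. Oas1b is an oligoadenylate synthetase gene tied to flavivirus resistance and known to carry an early stop codon in common laboratory strains. It had 2.91, 2.56 and 1.42 FPKM in WT oil and 0.817, 0.506 and 0.701 FPKM in WT E2, a difference of −0.95 ± 0.27 (adjusted p = 0.135). Gbp6 had 6.99, 5.20 and 4.41 FPKM and 2.44, 2.83 and 3.75 FPKM, a difference of −0.70 ± 0.24 (adjusted p = 0.272). Neither passed, and neither pair of groups overlapped. The single member that was higher in all WT E2 libraries was the class I chain H2-Q2, at 12.4, 15.1 and 14.01 FPKM in oil and 17.0, 26.9 and 22.4 FPKM after E2, with a difference of 0.62 ± 0.28 (adjusted p = 0.463). Isg15, Ifit3 and Irf7, the factor that amplifies type I interferon output, overlapped between the groups. Isg15 differed by −0.66 ± 0.44 (adjusted p = 0.686), Ifit3 by −0.74 ± 0.41 (adjusted p = 0.594) and Irf7 by −0.61 ± 0.28 (adjusted p = 0.476). H2-D1 was lower in every WT E2 library (52.0, 50.2 and 59.5 FPKM) than in every WT oil library (65.7, 71.4 and 65.5 FPKM), with −0.32 ± 0.12 (adjusted p = 0.326).

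In KIKO mice the members leaned the other way, and none passed. The difference between E2 and oil was above 0 for 62 of 78 members (against 54.1% of all genes), with a median of 0.13 over members and 0.01 over all genes; without KIKO E2 2 the median was 0.02 and 43 members were above 0. The median was 0.05 without KIKO oil 3, 0.23 without KIKO oil 1 and 0.22 without KIKO E2 1. In limma, 0 members passed the threshold (0.00677% of all genes) and 2 reached an unadjusted p under 0.05 (0.948% of all genes). All 9 GTPases were above 0 (median 0.25), as were 21 of 24 effectors (0.19) and 9 of 10 transcription factors (0.15). Pituitary markers had a median of 0.95 and fibroblast and meningeal markers of 0.26. Other marker lists had medians from −0.19 (arcuate neurons) to 0.19 (endothelial cells), and the part of these cells in the members' differences was not tested. Without overlap stood 2 members, both higher after E2 (against 4.55% of all genes): Ifi35, an interferon-induced leucine-zipper protein, at 6.86, 5.69 and 5.13 FPKM in oil and 7.12, 8.29 and 9.25 FPKM after E2, and the class II chain H2-Aa, at 5.91, 5.26 and 2.50 FPKM against 7.08, 11.4 and 6.23 FPKM. Their differences were 0.42 ± 0.22 (adjusted p = 1.00) and 0.75 ± 0.58 (adjusted p = 1.00).

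In ERKO mice the difference between E2 and oil was below 0 for 53 of 78 members (against 54.1% of all genes), with a median of −0.13 over members and −0.03 over all genes. Leaving out ERKO oil 1 gave a members' median of −0.06, leaving out ERKO E2 2 gave −0.05 and leaving out ERKO E2 1 gave −0.24. Medians of the marker lists ran from −0.63 (pituitary) to 0.42 (red blood cells), with −0.19 for fibroblast and meningeal markers. Their part in the members' differences was not tested. Here too 0 members passed in limma (0% of all genes), and 8 had an unadjusted p under 0.05 (against 7.23%), or 1 without ERKO E2 3. The 9 GTPases were all below 0, with a median of −0.48. ERKO E2 3 was the lowest of all 18 libraries for 4 of them. The median over GTPases of log2(FPKM + 1) minus the gene's mean was 0.35, −0.17 and −0.01 in ERKO oil 1 to 3. In ERKO E2 1 to 3 it was −0.18, −0.46 and −0.43. Gbp9 had 2.53, 1.99 and 1.82 FPKM in ERKO oil and 1.46, 1.31 and 0.231 FPKM in ERKO E2, a difference of −0.70 ± 0.25 (adjusted p = 0.473), or −0.38 (adjusted p = 1.00) without ERKO E2 3. Ifi47, an immunity-related GTPase, had 1.20, 0.988 and 0.686 FPKM against 0.256, 0.412 and 0.540 FPKM, with −0.48 ± 0.25 (adjusted p = 0.473), and the DNA sensor Ifi204 differed by −0.34 ± 0.17 (adjusted p = 0.473). In these 3 genes every E2 library was below every oil library. Non-overlapping groups were found for 7 members lower after E2 and 2 higher (against 6.92% and 5.39% of all genes). The 2 higher were Irf3, which switches on the interferon β gene, at 15.8, 15.8 and 12.7 FPKM in oil and 20.1, 16.3 and 21.5 FPKM after E2 (0.36 ± 0.15, adjusted p = 0.473), and H2-DMb2 (0.28 ± 0.22, adjusted p = 0.516).

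Tested directly, no member's response to E2 differed between genotypes past the threshold. For KIKO minus WT, 0 members passed in limma (0.135% of all genes) and 15 had an unadjusted p under 0.05 (19.2%, against 4.91% of all genes), or 4 without KIKO E2 2 and 8 without WT E2 1 or WT E2 2. The difference of responses was above 0 for 67 of 78 members (against 49.2% of all genes), with a median of 0.47 over members, 0.00 over all genes and 0.33 over members without KIKO E2 2. It was above 0 for all 9 GTPases (median 0.67), all 10 transcription factors (0.43) and 21 of 24 effectors (0.69), with medians of 0.97 for class II genes and 0.24 for class I chains. In the same comparison pituitary markers had a median of 1.87 and fibroblast and meningeal markers of 1.20, with 0 of either list past the threshold. Other marker lists had medians from −0.09 (dendritic cells, 2 tested) to 0.30 (oligodendrocytes). The part of these cells in the members' differences was not tested. For ERKO minus WT, 0 members passed (0.278% of all genes) and 8 had an unadjusted p under 0.05 (against 12.7%). There the median over members was 0.21, against −0.03 over all genes, and the GTPases had a median of −0.07. The members' median was 0.07 without ERKO E2 1, 0.12 without WT oil 1 and 0.13 without WT E2 2. The 2 differences share the WT libraries, and each holds the WT response with its sign turned, so they are not independent of the WT result.

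**Figure D2:**
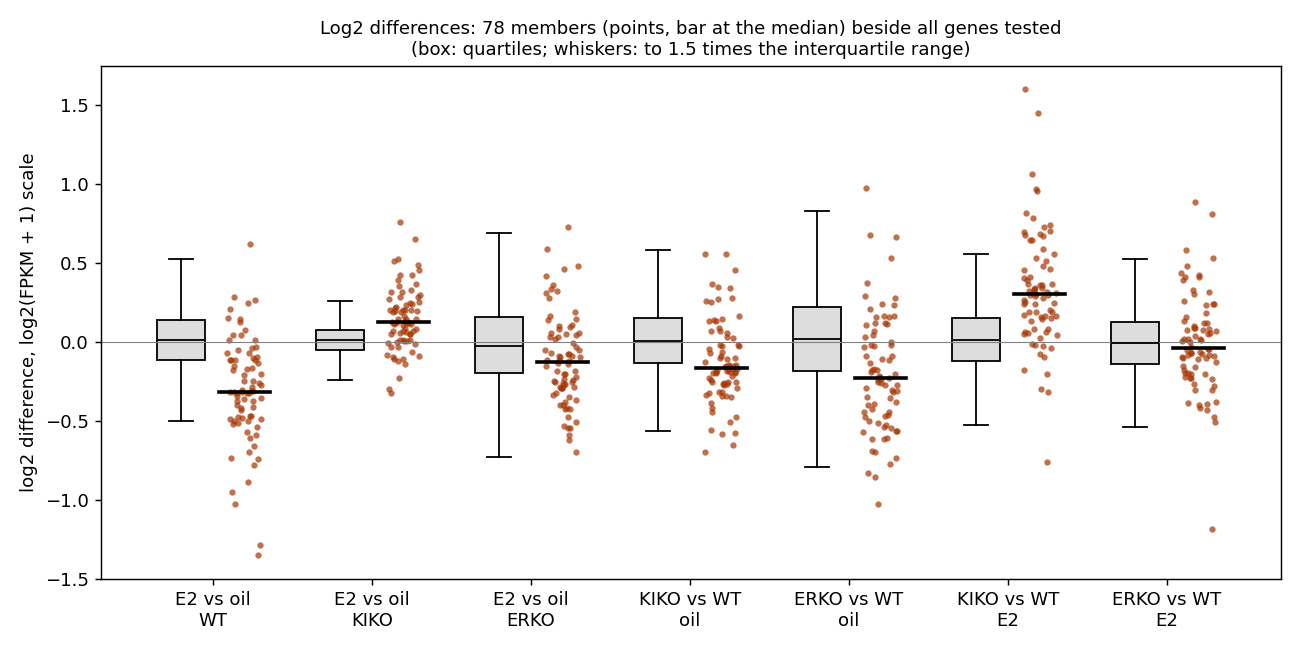
Log2 differences of the 78 members (points, bar at the median) beside the 14774 genes tested (boxes at the quartiles, whiskers to 1.5 times the interquartile range) in 7 comparisons. The members' medians are −0.32 for E2 in WT, 0.13 in KIKO and −0.13 in ERKO, while those of all genes lie near 0.

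Under oil, ERKO differed from WT in the class I heavy chain H2-D1, which was lower, and other class I and processing genes were mostly lower in ERKO without passing. H2-D1 had 65.7, 71.4 and 65.5 FPKM in WT oil and 46.5, 44.8 and 44.7 FPKM in ERKO oil. The ranges were far apart. The difference was −0.56 ± 0.12 (adjusted p = 0.0367). KIKO oil had 67.4, 56.8 and 53.2 FPKM, overlapping WT oil and above every ERKO oil library, but the tests of KIKO against WT and of ERKO against KIKO did not pass (−0.20 ± 0.12 and −0.37 ± 0.12, adjusted p = 0.628 and 0.998). After E2 the values were 52.0, 50.2 and 59.5 FPKM in WT, 58.6, 75.4 and 60.1 FPKM in KIKO and 52.4, 40.2 and 48.3 FPKM in ERKO. In E2-treated mice, ERKO overlapped with WT and lay below KIKO, with differences of −0.20 ± 0.12 (adjusted p = 0.601) and −0.45 ± 0.12 (adjusted p = 0.788). Averaged over both treatments, H2-D1 was lower in ERKO than in WT by 0.38 ± 0.09 (adjusted p = 0.0243).

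The call for H2-D1 under oil was lost without WT oil 1, WT oil 2, ERKO oil 1, ERKO oil 2 or ERKO oil 3 (adjusted p from 0.0852 to 0.147), where 1 group was left with 2 libraries, and kept without WT oil 3 (adjusted p = 0.0478). Averaged over treatments it was lost without WT oil 2, WT E2 3 or any of the 3 ERKO oil libraries (adjusted p from 0.0521 to 0.0631).

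Among the 78 members, H2-D1 alone passed in ERKO against WT under oil, against 1.43% of all genes. An unadjusted p under 0.05 was reached by 13 members (16.7%, against 21.7% of all genes), and groups did not overlap for 19 members lower and 7 higher in ERKO (against 18.4% and 20.8%). Differences were below 0 for 57 members (against 47.7% of all genes), with a median of −0.23 against 0.02, or −0.14 over members without WT oil 1. The class I chains had a median of −0.31, with 12 of 18 below 0, and the 6 processing genes were all below 0 with a median of −0.41. H2-K1 had 61.6, 59.1 and 46.8 FPKM in WT oil and 35.1, 32.5 and 31.1 FPKM in ERKO oil, without overlap (−0.74 ± 0.25, adjusted p = 0.118). H2-Q7, a nonclassical chain, had 3.65, 2.49 and 2.02 FPKM against 1.68, 0.330 and 0.618 FPKM (−1.03 ± 0.34, adjusted p = 0.110). The immunoproteasome subunit Psmb9 had 7.07, 8.90 and 6.16 FPKM against 2.68, 3.48 and 4.82 FPKM (−0.86 ± 0.31, adjusted p = 0.134), and Psmb10 had 39.1, 27.8 and 24.0 FPKM against 19.5, 19.6 and 19.6 FPKM (−0.57 ± 0.29, adjusted p = 0.263). B2m had 244, 257 and 254 FPKM against 211, 199 and 224 FPKM (−0.25 ± 0.21, adjusted p = 0.490). In all 5 of these genes each ERKO oil library was below each WT oil library, and none passed.

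Some members were higher in ERKO oil. Ifitm7 had 0.0458, 0.561 and 0.463 FPKM in WT oil and 0.990, 1.46 and 0.933 FPKM in ERKO oil (0.66 ± 0.23, adjusted p = 0.130), H2-M10.2 differed by 0.67 ± 0.30 (adjusted p = 0.216) and Isg20l2 by 0.27 ± 0.13 (adjusted p = 0.238). The nonclassical chain H2-T24 had 1.46, 4.28 and 3.13 FPKM in WT oil, 4.97, 5.34 and 3.48 FPKM in KIKO oil and 6.02, 7.06 and 6.197 FPKM in ERKO oil. All ERKO oil libraries were above all WT and KIKO oil libraries (0.97 ± 0.47, adjusted p = 0.239 against WT). After E2 its values were 2.11, 2.96 and 3.06 FPKM in WT, 5.10, 6.32 and 3.29 FPKM in KIKO and 8.70, 6.05 and 0.641 FPKM in ERKO, where ERKO E2 3 was the lowest of all 18 libraries and the other 2 were above every WT E2 library. With all libraries, ERKO against WT after E2 gave 0.39 ± 0.47 (adjusted p = 0.864). Without ERKO E2 3 it gave 1.17 (adjusted p = 0.0194), in a fit where 1.28% of members and 8.7% of all genes passed.

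Leaving ERKO E2 3 out of the fit, which removes no oil library but changes the estimate of spread, raised the number of members past the threshold in ERKO against WT under oil to 13 (10 lower, 3 higher; 16.7% of members), against 22.5% of all genes in that fit. The 10 lower members were H2-D1, H2-K1, H2-Q7, Psmb9, Psmb10, Ifitm1, Irf7, Irf2bp1, H2-Ke2 and H2-Ke6, and the 3 higher were H2-T24, H2-M10.2 and Ifitm7. Irf7 had 13.2, 7.26 and 5.68 FPKM in WT oil and 5.29, 3.86 and 3.55 FPKM in ERKO oil, with −0.83 ± 0.28 (adjusted p = 0.121) in the fit of all libraries.

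**Figure D3:**
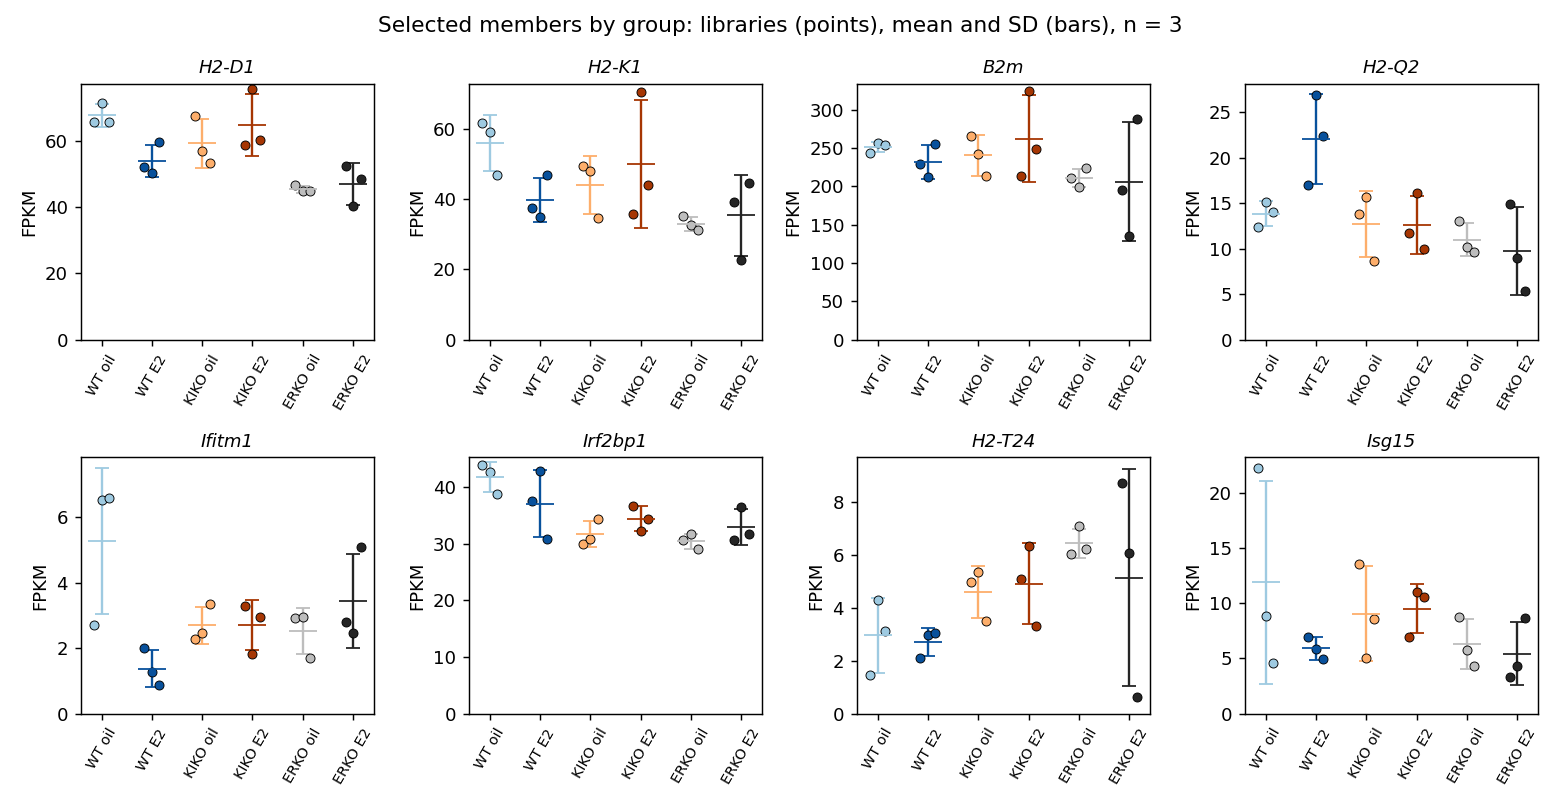
FPKM of 8 members in the 6 groups, with libraries as points and mean and SD as bars (n = 3; axes start at 0). H2-D1 in ERKO oil lies between 44.7 and 46.5 FPKM, below all WT oil libraries, and Ifitm1 is lower in all WT E2 libraries than in all WT oil libraries.

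Averaged over oil and E2, 3 members were past the threshold in ERKO against WT, all lower, against 3.95% of all genes: H2-D1, H2-Q2 and Irf2bp1. H2-Q2 had 13.1, 10.24 and 9.65 FPKM in ERKO oil and 14.9, 8.94 and 5.33 FPKM in ERKO E2, beside the WT values above, and 13.9, 15.7 and 8.66 FPKM in KIKO oil and 11.7, 16.2 and 10.03 FPKM in KIKO E2. The WT and ERKO libraries overlapped under oil but not after E2, where the difference was −1.18 ± 0.28 (adjusted p = 0.0555). Averaged, it was −0.75 ± 0.20 (adjusted p = 0.0486). This call held in 5 of 20 alternatives and, with 1 library left out, only without ERKO E2 1 or ERKO E2 3 (adjusted p = 0.0148 and 0.0188). Irf2bp1 had 43.9, 42.7 and 38.8 FPKM in WT oil, 37.5, 42.8 and 30.9 FPKM in WT E2, 30.6, 31.7 and 29.1 FPKM in ERKO oil and 30.7, 36.5 and 31.7 FPKM in ERKO E2. It was lower in every ERKO oil library than in every WT oil library, whereas the E2 groups overlapped, and the averaged difference was −0.30 ± 0.08 (adjusted p = 0.0421). That call held in 7 of 20 alternatives and, with 1 library left out, only without WT oil 3, WT E2 3, ERKO E2 2 or ERKO E2 3. The members' median was −0.11 (−0.05 without WT E2 3), against 0.00 over all genes, and 13 members had an unadjusted p under 0.05 (against 18.8%). Leaving out ERKO E2 3 gave 13 members past the threshold, against 29.6% of all genes in that fit.

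KIKO differed from WT under oil in no member past the threshold (0 in limma, against 0.0135% of all genes; 6 at an unadjusted p under 0.05, against 10.1%). Differences were below 0 for 57 of 78 members (against 48.8%), with a median of −0.17 against 0.01; the members' median was −0.06 without KIKO oil 3, −0.08 without WT oil 1 and −0.27 without KIKO oil 1. Groups did not overlap for 6 lower and 3 higher members (against 9.35% and 12.5% of all genes). Irf2bp1 was lower, at 30.0, 30.9 and 34.3 FPKM (−0.39 ± 0.11, adjusted p = 0.237), close to its ERKO oil values, and so were Ifi35 (−0.56 ± 0.22, adjusted p = 0.390) and the class I chain H2-T10 (−0.34 ± 0.15, adjusted p = 0.436). Higher without overlap were Ifitm7 (0.56 ± 0.23, adjusted p = 0.431), Irf1, a factor that drives class I and Gbp genes (0.25 ± 0.15, adjusted p = 0.587), and Oas1c (0.34 ± 0.23, adjusted p = 0.660). KIKO and ERKO share the WT oil libraries in these comparisons, so the shared WT values enter both. ERKO against KIKO under oil likewise gave 0 members (0% of all genes; 3 at an unadjusted p under 0.05, against 2.3%), with a median of −0.06 against 0.01. This median changed sign without KIKO oil 1 (0.03), and was −0.02 without ERKO oil 3, −0.13 without KIKO oil 3 and −0.14 without ERKO oil 1. Separate ranges were seen for 5 lower and 1 higher members (against 13.6% and 14.5%), the higher being H2-T24 and the lower led by H2-D1, H2-Q7 (−0.98 ± 0.34, adjusted p = 0.998) and H2-DMa (−0.27 ± 0.21, adjusted p = 0.998).

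After E2, members were mostly higher in KIKO than in WT, and none passed. Differences were above 0 for 67 of 78 members (against 52.5% of all genes), with a median of 0.30 against 0.01 over all genes, or 0.17 over members without KIKO E2 2. In the same comparison fibroblast and meningeal markers had a median of 0.66 and pituitary markers of 1.41, with 0 of either list past the threshold. Medians of the other marker lists ran from −0.37 (arcuate neurons) to 0.30 (dendritic cells, 2 tested), with −0.19 for endothelial and −0.09 for microglial markers. The part of these cells in the members' differences was not tested. In limma 0 members passed (0.948% of all genes), and 18 had an unadjusted p under 0.05 (23.1%, against 8.98%), or 7 without KIKO E2 2, 8 without WT E2 2 and 9 without WT E2 1. Groups did not overlap for 16 higher and 2 lower members (against 11.4% and 10.5%). All 9 GTPases were higher in KIKO (median 0.67), as were all 10 transcription factors (0.32), all 6 class II genes (0.66), 20 of 24 effectors (0.31) and 15 of 18 class I chains (0.28). Oas1b had 1.58, 3.22 and 2.20 FPKM in KIKO E2, each library above the WT E2 values given above (0.97 ± 0.27, adjusted p = 0.141), and Gbp6 had 4.77, 8.001 and 5.59 FPKM (0.82 ± 0.24, adjusted p = 0.185). H2-K2, a class I chain of low level, had 1.23, 0.998 and 1.01 FPKM in WT E2 and 1.83, 1.93 and 1.94 FPKM in KIKO E2 (0.48 ± 0.16, adjusted p = 0.284). H2-Q2 and H2-Ke2 were the 2 that were lower without overlap (−0.76 ± 0.28 and −0.30 ± 0.27, adjusted p = 0.364 and 0.804). Averaged over treatments, KIKO against WT gave 0 members (1.56% of all genes; 7 at an unadjusted p under 0.05, against 14.9%), with Irf1 at 0.33 ± 0.10 (adjusted p = 0.126) and H2-K2 at 0.41 ± 0.12 (adjusted p = 0.0913). Without ERKO E2 3 in the fit, Gbp6 passed after E2 (0.82, adjusted p = 0.0370; 4.03% of all genes), and H2-K2, H2-Ke2, H2-T24, Irf1 and Irf2bp1 passed in the average (12.3% of all genes).

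After E2, the GTPases were at lower levels in ERKO than in KIKO, although none passed after adjustment. All 9 were lower in ERKO, with differences from −1.06 to −0.54 and a median of −0.72; 8 of the 9 did not overlap and all 9 had an unadjusted p under 0.05. Ifi47 had 0.919, 3.37 and 1.97 FPKM in KIKO E2 and 0.256, 0.412 and 0.540 FPKM in ERKO E2 (−1.06 ± 0.25, adjusted p = 0.788). Gbp3 had 4.74, 10.02 and 6.11 FPKM against 3.78, 1.91 and 3.03 FPKM (−1.002 ± 0.31, adjusted p = 0.788), and Gbp6 had 4.77, 8.001 and 5.59 FPKM against 4.13, 3.46 and 1.94 FPKM (−0.78 ± 0.24, adjusted p = 0.788). KIKO E2 2 was the highest of all 18 libraries for 8 of the 9 GTPases, these 3 among them, and ERKO E2 3 was the lowest for 4. The median over GTPases of log2(FPKM + 1) minus the gene's mean was 0.01, 0.71 and 0.24 in KIKO E2 1 to 3. In ERKO E2 1 to 3 it was −0.18, −0.46 and −0.43. The 9 genes were measured in the same libraries, so they are not 9 independent results. Over all members, 0 passed in limma (0.0135% of all genes) and 20 had an unadjusted p under 0.05 (25.6%, against 3.22%), or 7 without KIKO E2 2. Differences were below 0 for 66 of 78 (against 55.3%), with a median of −0.36 against −0.03. The members' median was −0.22 without KIKO E2 2, −0.23 without ERKO E2 2 and −0.33 without ERKO E2 3. Groups did not overlap for 14 members, all lower in ERKO, against 3.86% of all genes. In the same comparison pituitary markers had a median of −1.43 and fibroblast and meningeal markers of −0.54, with 0 of either list past the threshold. Medians of the other marker lists ran from −0.35 (dendritic cells, 2 tested) to 0.16 (microglia), with −0.20 for endothelial markers. The part of these cells in the differences of GTPases and other members was not tested.

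In ERKO against WT after E2, the median over members was −0.04 against −0.01 over all genes, with 41 of 78 below 0 (against 52%). Leaving out any 1 of the 6 libraries moved this small median, from −0.11 without ERKO E2 1 to 0.07 without WT E2 3, and it was also above 0 without ERKO E2 2 (0.06). In limma 0 members passed (1.3% of all genes; 7 at an unadjusted p under 0.05, against 11.5%), and groups did not overlap for 6 lower and 5 higher members (against 6.29% and 4.7%). Lower in ERKO were H2-Q2, Ifi204 (−0.43 ± 0.17, adjusted p = 0.321) and the class I chain H2-Q1 (−0.40 ± 0.17, adjusted p = 0.383). Higher in ERKO were Oas1b (0.81 ± 0.27, adjusted p = 0.211), Ifitm1 (0.89 ± 0.29, adjusted p = 0.213) and H2-K2 (0.48 ± 0.16, adjusted p = 0.236). Oas1b stood at 2.65, 1.46 and 1.39 FPKM in KIKO oil, 2.65, 1.60 and 1.24 FPKM in ERKO oil and 3.09, 1.23 and 1.75 FPKM in ERKO E2, so WT E2 was the lowest of the 6 groups for this gene. The joint test over the 6 groups gave 0 members in limma (1.16% of all genes; 11 at an unadjusted p under 0.05, against 12.1%), with H2-D1 at adjusted p = 0.0722.

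**Figure D4:**
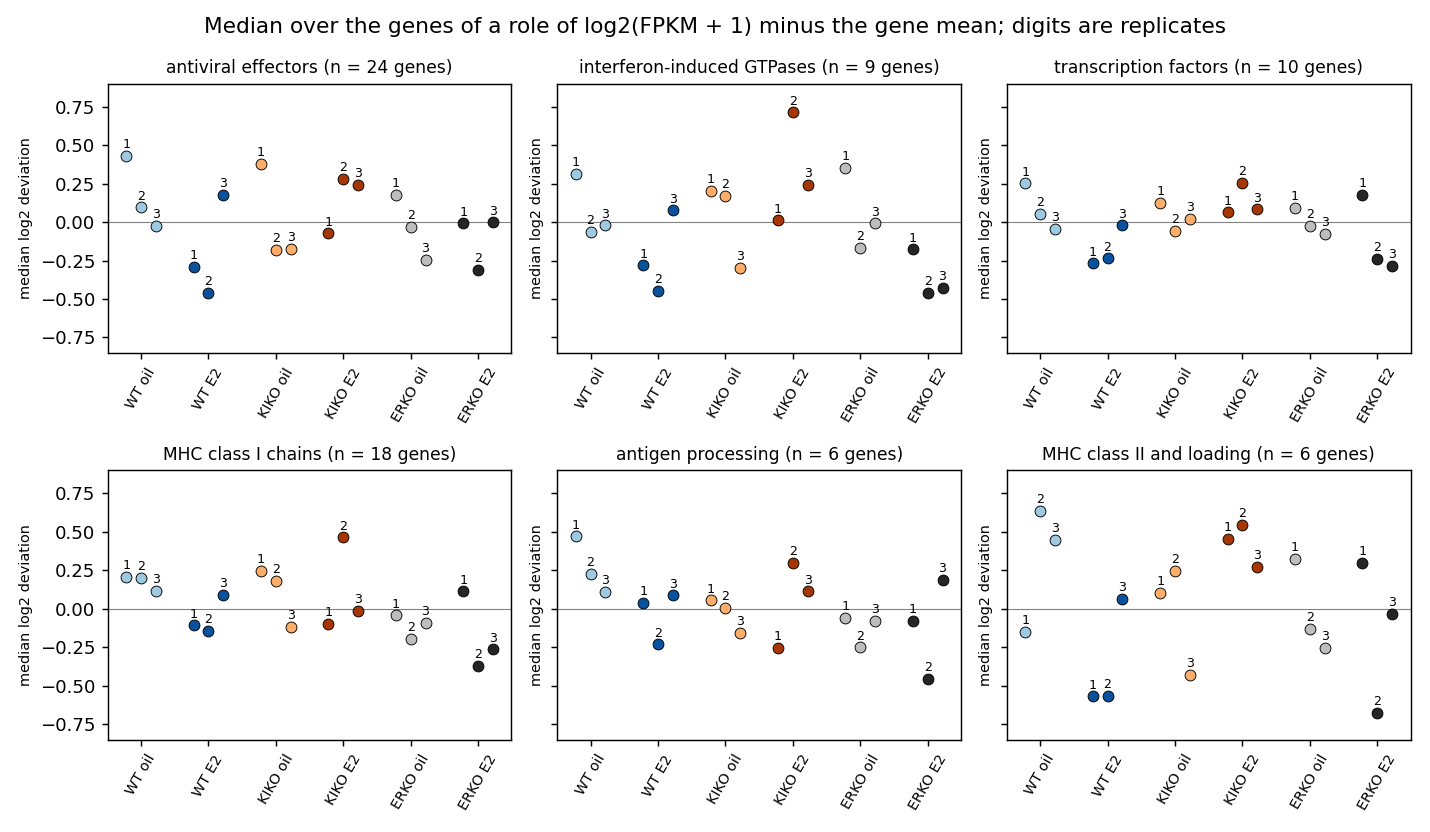
Median over the genes of each of 6 roles of log2(FPKM + 1) minus the gene's mean, for each library (points; digits are replicates). The GTPases reach 0.71 in KIKO E2 2, and the effectors 0.43 in WT oil 1 and −0.46 in WT E2 2.

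The class II genes showed the widest scatter and, in several libraries, ran parallel with markers of meninges and pituitary, which border the arcuate nucleus. H2-Aa had 3.18, 11.7 and 6.16 FPKM in WT oil and 0.660, 1.03 and 6.74 FPKM in WT E2, with −1.29 ± 0.58 (adjusted p = 0.454). The groups overlapped, as WT oil 1 was low and WT E2 3 was high. H2-Ab1 followed it, at 1.58, 9.69 and 6.27 FPKM against 0.833, 1.24 and 4.74 FPKM. In KIKO E2, H2-Aa had 7.08, 11.4 and 6.23 FPKM and differed from WT E2 by 1.60 ± 0.58 (adjusted p = 0.342), while ERKO E2 had 5.97, 1.12 and 1.10 FPKM and differed from KIKO E2 by −1.51 ± 0.58 (adjusted p = 0.788). Cd74, the invariant chain that escorts class II, had 3.07, 16.4 and 13.7 FPKM in WT oil, 2.55, 2.42 and 11.6 FPKM in WT E2 and 13.7, 23.8 and 10.8 FPKM in KIKO E2. The summed level of fibroblast and meningeal markers (7 listed, 6 at or above 0.5 FPKM) was 12.7, 121 and 131 FPKM in WT oil, 17.1, 12.8 and 145 in WT E2, 89.8, 51.0 and 36.6 in KIKO oil, 81.2, 73.4 and 85.7 in KIKO E2, 95.7, 87.2 and 14.8 in ERKO oil and 82.9, 31.9 and 18.1 in ERKO E2. The sum of pituitary and pars tuberalis markers (10 listed, 8 at or above 0.5 FPKM; Gh and Prl below it) was 169, 772 and 895 FPKM in WT oil, 142, 143 and 909.8 in WT E2, 238 to 629 in KIKO oil, 518 to 880.1 in KIKO E2, 116 to 707 in ERKO oil and 199.8 to 637 in ERKO E2. Both sums rest largely on single genes. Chga was the highest pituitary marker, with a mean of 328 FPKM over all libraries (113 to 539), followed by Cga at 121 FPKM. Among the fibroblast and meningeal markers Dcn was highest, at 44.4 FPKM, followed by Col1a2 at 6.59 FPKM. Some libraries did not run parallel. H2-Aa had 6.44, 2.69 and 2.87 FPKM in ERKO oil, where library 2 was lowest in H2-Aa yet high in both sums (87.2 and 629 FPKM). KIKO E2 2 was the highest of its group in H2-Aa and the lowest in the fibroblast and meningeal sum. WT oil 1, WT E2 1 and WT E2 2, by contrast, were low in H2-Aa and in both sums. Ifitm1, by the values given above, was likewise lower in WT oil 1 than in WT oil 2 and 3 and lower in ERKO oil 3 than in ERKO oil 1 and 2, as were both sums, while in WT E2 it was lowest in library 3, where both sums were highest. The part of this tissue in the values of Ifitm1 and of the class II genes was not tested.

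Markers of immune cells were read beside all members. All 14 microglial markers were measured, and their sum was 200.9 to 213 FPKM in WT oil, 165 to 195 in WT E2, 155 to 182 in KIKO oil, 151 to 169 in KIKO E2, 144 to 248 in ERKO oil and 124 to 295 in ERKO E2; 0 of 14 changed in any of the 13 comparisons of differences. Their median difference between E2 and oil in WT was −0.25, beside −0.26 for class I chains, and their part in the members' differences was not tested. Of 8 macrophage markers, 7 were below 0.5 FPKM (sums of 1.02 to 5.16 FPKM), and of the 10 T and B lymphocyte markers found, 9 were (sums of 0.655 to 2.22 FPKM). All 9 markers of arcuate neurons were at or above the minimum.

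Markers of other cells were read in the comparisons in which members passed. For E2 against oil in WT, beside the members' median of −0.32, the median was −0.32 for 8 oligodendrocyte markers, −0.24 for 9 arcuate neuron markers, −0.77 for fibroblast and meningeal markers and −0.96 for pituitary markers. Other lists stayed nearer 0 or were above it. Endothelial markers had 0.14, the 2 dendritic cell markers tested 0.13, and astrocyte and neuron markers −0.01 and −0.02. Ependymal, pericyte and red blood cell markers had −0.09, −0.12 and −0.15. Of these lists only the arcuate neurons held calls, as Kiss1, which encodes kisspeptin, fell with E2 (−3.58 ± 0.32, adjusted p = 1.28e-05) and so did Tac2, which encodes neurokinin B (−1.21 ± 0.24, adjusted p = 0.0201). The oligodendrocyte sum was 1456 to 1948 FPKM in WT oil, 1093 to 1502 in WT E2, 1297 to 1403 in KIKO oil, 1015 to 1686 in KIKO E2, 1206 to 1392 in ERKO oil and 1252 to 1382 in ERKO E2. In ERKO against WT under oil, beside the class I median of −0.31, the median was −0.40 for oligodendrocyte, −0.23 for astrocyte, −0.57 for arcuate neuron, −0.44 for fibroblast and meningeal, −0.34 for pituitary, −0.84 for red blood cell and −0.07 for microglial markers. It was −0.17 for endothelial and −0.11 for ependymal markers. Above 0 were the dendritic cell (0.49, 2 tested), neuron (0.07) and pericyte (0.03) markers. There the astrocyte filament gene Gfap was lower in ERKO (−1.06 ± 0.20, adjusted p = 0.0278), as was Th, which encodes the enzyme that starts dopamine synthesis (−0.92 ± 0.20, adjusted p = 0.0367). Averaged over treatments, Kiss1 was higher (1.58 ± 0.22, adjusted p = 0.00163) and Th lower (−0.66 ± 0.14, adjusted p = 0.0176) in ERKO than in WT. Beside the members' median of −0.11, red blood cell markers had −0.56, arcuate neuron markers −0.33 and endothelial markers −0.30 in this average. Fibroblast and meningeal, oligodendrocyte and ependymal markers had −0.22, −0.19 and −0.18. Astrocyte, pericyte and microglial markers had −0.11, −0.05 and −0.05. Dendritic cell (2 tested), neuron and pituitary markers were above 0, at 0.22, 0.04 and 0.01. The part of these cells in the members' differences was not tested.

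**Figure D5:**
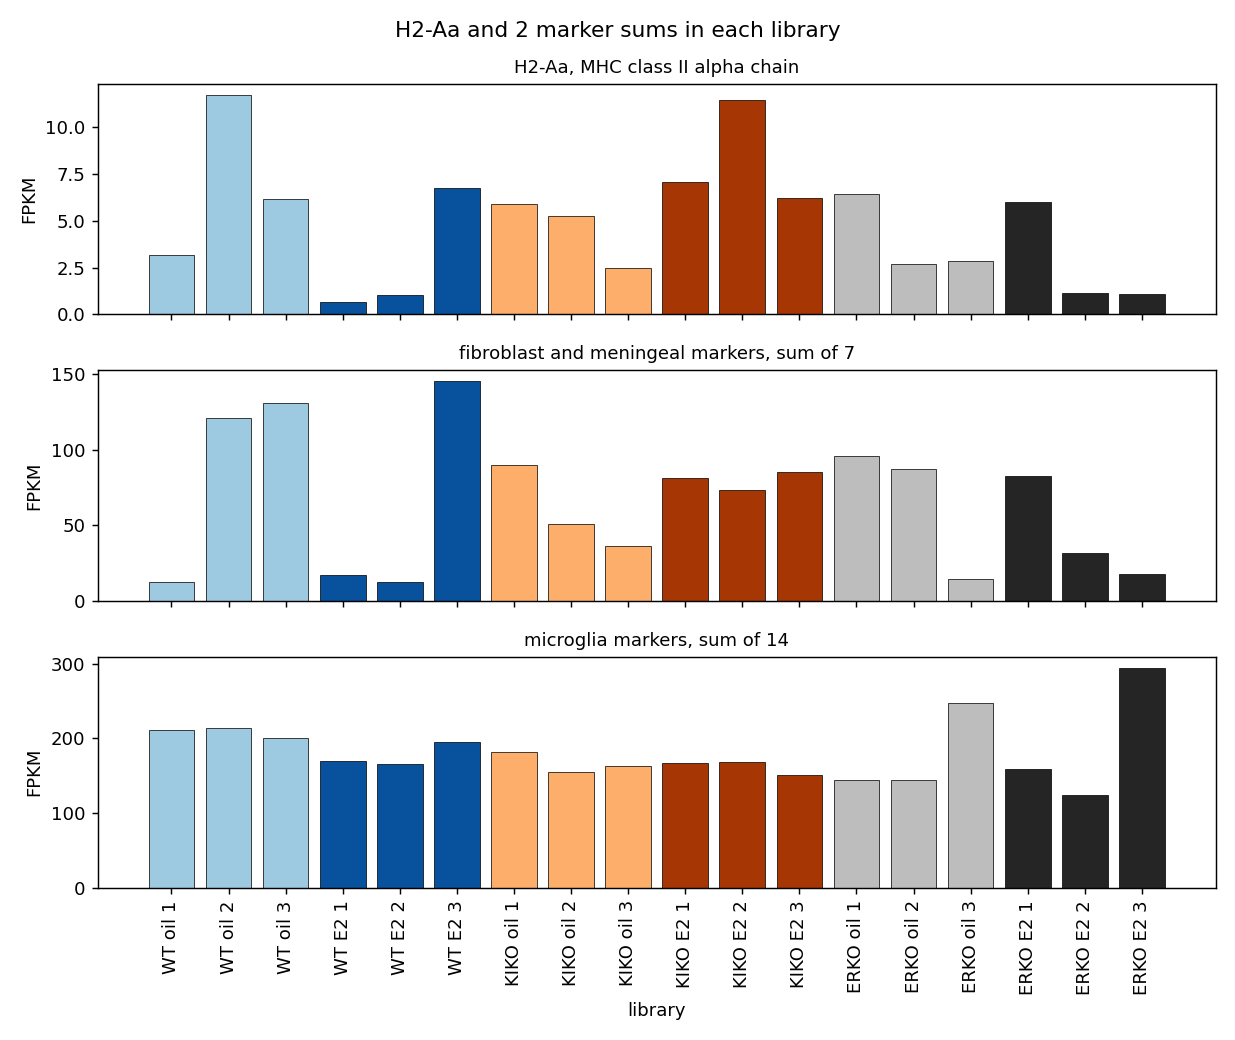
FPKM of H2-Aa and the summed FPKM of 7 fibroblast and meningeal and 14 microglial markers in each of the 18 libraries (bars from 0). WT oil 1, WT E2 1 and WT E2 2 are low for H2-Aa and for the fibroblast and meningeal sum, while WT E2 3 is high for both. KIKO E2 2 is the highest of its group for H2-Aa and the lowest for that sum.

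Outside the members, 72 other genes of the pathway were listed, of which 69 were found and 64 tested: sensors and adaptors, interferon receptors and kinases, other interferon-stimulated genes, and partners and regulators of MHC. Of these 64, 0 passed in 12 of the 13 comparisons of differences. In ERKO against WT averaged over treatments 1 passed, where 3.95% of all genes did. This was Socs1, which shuts off signalling by Jak kinases. It had 5.64, 8.60 and 6.17 FPKM in WT oil, 6.93, 7.95 and 6.57 FPKM in WT E2, 4.11, 3.53 and 4.66 FPKM in ERKO oil and 5.14, 5.19 and 5.09 FPKM in ERKO E2. Every ERKO library was below every WT library, and the difference was −0.50 ± 0.12 (adjusted p = 0.0341). That call held in 11 of 20 alternatives, but in only 4 of the 12 that left out 1 library. It was also lost in limma with only the groups compared in the fit (adjusted p = 0.0637). KIKO had 5.10 and 5.60 FPKM as group means. The 30 other interferon-stimulated genes tested had a median difference of −0.26 for E2 in WT, 0.11 in KIKO and −0.26 in ERKO, and of 0.30 for KIKO against WT after E2. In WT the median was −0.19 for the 10 sensors and adaptors, −0.03 for the 11 receptors and kinases and −0.01 for the 13 MHC partners and regulators, beside 0.01 for all genes.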

How the data were processed

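The authors deposited a gene table for each of 18 libraries, with values in FPKM, lower and upper confidence bounds in FPKM, and a status. TopHat2 2.0, Cuffdiff and mm10 are named per the submitters' processing notes; the annotation is not given in the sources used here. Gene starts in the deposited tables did not lie on that build, so members are placed by chromosome only. Rows of the same symbol were summed. A minimum mean of 0.5 FPKM and the removal of 732 small RNA genes left 14774 genes for testing. limma 3.58.1 (R 4.3.3) was fitted to log2(FPKM + 1) with 6 group means in 1 fit of 18 libraries (12 residual degrees of freedom), a variance trend and robust moderation. The two-sided p-values were adjusted by Benjamini-Hochberg, with a threshold of 0.05. Compared were E2 with oil within each genotype, genotypes against each other under each treatment and, for KIKO and ERKO against WT, averaged over treatments, the differences in E2 response, and a joint test of the 6 groups. The script was tested on simulated data. Fragment numbers were inferred from the confidence bounds, came out whole within tolerance in 72.0% to 74.7% of genes with symmetric bounds, and were not used in the tests.

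The members and lists were chosen with earlier results of these data known. The rule for naming took members and pathway genes past the threshold in any comparison, the 3 members of smallest p whose groups do not overlap in each direction, the 4 highest of each role, the 3 next to the minimum on either side, and Esr1; the other genes named, such as Isg15, H2-T24, Psmb9 and Cd74, were chosen after their values were seen. Results for 1 member are not reported here, though counts and medians include it. Replicate numbers pair no samples here. Alternatives covered the pseudocount, the filter, scaling, variance model, library weights, a replicate block, the groups in the fit and leaving out single libraries. Promoter sequences are RefSeq's, matched by symbol (56 of 78). Python 3.11.15 with numpy 2.4.6, pandas 2.3.3 and matplotlib 3.10.9 was used.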

Additional observations from a re-analysis of the deposited data

How the results depend on the processing

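The median log2 difference over the 78 members moved by less than the pooled SD of 0.158 in all 214 alternative values. That SD is larger than several of the medians themselves, so this bound does not fix their size or sign. With 1 library left out the median ran from 0.02 to 0.23 for E2 in KIKO (0.13 with all libraries), from −0.14 to 0.03 for ERKO against KIKO under oil (−0.06), and from −0.11 to 0.07 for ERKO against WT after E2 (−0.04), where it also was 0.01 with library weights. Counts of members past the threshold were small and moved. For E2 against oil in WT the count of 1 became 0 with no filter on low values, with quantile normalization, with the replicate block and with only the groups compared in the fit, and was 0 to 1 with 1 library left out. For ERKO against WT under oil the count of 1 became 0 with quantile normalization and with the block. It became 11 with library weights (14.1% of members, against 19.8% of all genes) and 8 with only the groups compared (10.3%, against 11.2%). With ERKO E2 3 out of the fit it was 13 (16.7%, against 22.5%), and with 1 library of the compared groups left out it was 0 to 1. For KIKO against WT after E2 the count of 0 became 2 with weights (2.56% of members, against 6.97% of all genes). It became 1 (1.28%) with only the groups compared (against 1.38%) and 1 without ERKO E2 3 (against 4.03%). For ERKO against WT after E2 the count of 0 became 1 (1.28% of members) with quantile normalization (1.27% of all genes), with weights (8.81%) and with the block (0.948%). It was 0 to 1 with 1 library left out. For KIKO against WT averaged, 0 became 6 with weights (7.69% of members, against 14.6% of all genes). It became 1 with only the groups compared (1.28%, against 6.91%) and 5 without ERKO E2 3 (6.41%, against 12.3%). For ERKO against WT averaged, 3 became 1 (1.28% of members) with quantile normalization, with median-ratio scaling and without the variance trend (4.725%, 3.90% and 3.83% of all genes). It became 14 with weights (17.95%, against 29.9%) and 0 with only the groups compared (against 0.643%). With 1 library left out it ran from 0 to 13, the 13 being without ERKO E2 3 (16.7%, against 29.6%). The joint test gave 7 with weights (8.97% of members, against 21.4% of all genes). With 1 library left out it gave 0 to 4, the 4 being without ERKO E2 3 (against 13.3%), and the ERKO minus WT response 0 to 1. Of the named results under the alternatives, 609 values stayed on the same side of the threshold, 60 lost it, 12 gained it and 0 reversed; the cause was not tested. Same-numbered libraries deviated together no more than others (median correlation −0.061 over 45 pairs, against 0.047 over 90 pairs of different number). The replicate block brought H2-Q2 past the threshold in ERKO against WT after E2, and took Ifitm1 (adjusted p = 0.072) and H2-D1 under oil (0.0621) out. Depth limits members of low level.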
